A study of Mus musculus with 9 samples.

Results

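Iron uptake, storage and export were followed in 10 genes of mouse alveolar macrophages, the phagocytes that live in the airspaces of the lung. The genes were Tfrc, Slc40a1, Fth1, Ftl1, Slc11a1, Slc11a2, Hmox1, Aco1, Ireb2 and Steap3, found by matching the Entrez identifiers of the count table to these symbols, and they were 10 of the 27179 genes counted. All 10 passed the filter on low counts, which left 12840 genes. The set was proposed with results of these libraries already known, so the differences between knockout and wild type in these 10 genes are given as a description, without a test.

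RNA was sequenced from macrophages sorted out of the lungs of mice at 1 week of age, all of C57BL/6 background. The wild type group had 4 libraries and the Suz12 cKO group, a conditional knockout of the Suz12 gene, had 5, and the series text calls them biological replicates. Suz12 is a core subunit of Polycomb repressive complex 2, which silences genes through methylation of histone H3. The sources used here do not give the Cre driver, the deleted part of the gene, the sex of the mice or whether animals were pooled.

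Summed gene counts were 13.8 to 25.3 times 1e6 per wild type library and 18.6 to 45.6 times 1e6 per knockout library. Every mean below is given with its SD, over n = 4 wild type and n = 5 knockout libraries. Suz12 stood at 51.7 to 76.6 counts per 1e6 (CPM) in wild type and at 11.9 to 21.8 CPM in knockout, with no overlap. All 12 alveolar macrophage markers had counts in these libraries, led by Chil3 at 13734 to 50835 CPM in wild type and 5453 to 32245 CPM in knockout. Their sum was 22936 to 61235 CPM in wild type and 15173 to 41491 CPM in knockout, with Marco called higher and Car4, Krt79 and Fabp1 called lower, and their part in the iron gene differences was not tested. Beside these and the other marker calls, 8.97% of all 12840 tested genes were called higher and 11% lower (edgeR adjusted p under 0.05). Markers of interstitial and iron-recycling macrophages summed to 19.1 to 28.9 CPM in wild type and 33.9 to 37.2 CPM in knockout. Of those 13 markers, all with counts, 10 were tested and 2 were called higher, among them Vcam1. The members did not move together: Ms4a7, the most abundant, was at 10.9 to 17.5 CPM in wild type and 7.38 to 11.7 CPM in knockout. Summed red cell markers (8 of the 10 listed were in the table, all with counts) lay at 24.6 to 116 CPM in wild type and 23.7 to 312 CPM in knockout, highest in knockout libraries 2 and 3. Neutrophil markers (9 of 10 with counts, Elane at 0) summed to 71.8 to 96.8 CPM in wild type and 76.8 to 202 CPM in knockout. Csf3r, the most abundant of them, was called higher, at 12.2 to 26.1 against 34.4 to 72.8 CPM. The lung epithelial markers (11 of 11 with counts) summed to 166 to 269 CPM in wild type and 88.9 to 352 CPM in knockout. Cdh1 alone stood at 151 to 232 and 75.8 to 316 CPM, so this sum largely follows that gene. The part of these markers in the iron gene differences was not tested. In bulk RNA, a change in the make-up of the sorted cells and a change of RNA per cell cannot be told apart.

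Cells take up iron when transferrin, its carrier in blood, binds the transferrin receptor and is carried into endosomes. There the iron is reduced and pumped into the cytosol, where ferritin stores it, and ferroportin is the known exporter of iron from cells. Macrophages also gain iron from heme, which heme oxygenase breaks open. Iron regulatory proteins tie these steps together: when iron is scarce they bind hairpins called iron-responsive elements, which blocks translation when the hairpin lies in the 5′ untranslated region (UTR) and protects the transcript from decay when it lies in the 3′ UTR.

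The hairpins are shown first because they divide the genes by how iron is known to act on them. A search of the UTRs of GENCODE vM21 transcripts (GRCm38) looked on the sense strand for a C, 5 bases, the loop CAGTGN and 5 more bases, with at least 4 of the 5 bases before the loop able to pair, G with T included, with those after it. Elements were found in 5 of the 10 genes, and each is written 5′ to 3′ as DNA with the loop CAGTGN in capitals and 5 bases of flank on either side.
Tfrc 3′ UTR element 1: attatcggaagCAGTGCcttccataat
Tfrc 3′ UTR element 2: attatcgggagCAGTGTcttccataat
Tfrc 3′ UTR element 3: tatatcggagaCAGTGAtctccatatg
Tfrc 3′ UTR element 4: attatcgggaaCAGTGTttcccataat
Slc11a2 3′ UTR element 1: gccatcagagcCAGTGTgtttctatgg
Slc40a1 5′ UTR element 1: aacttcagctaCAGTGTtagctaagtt
Fth1 5′ UTR element 1: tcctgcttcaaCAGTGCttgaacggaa
Ftl1 5′ UTR element 1: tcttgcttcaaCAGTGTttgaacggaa
The 4 Tfrc elements lie in exon 19 between chr16:32631220-32631246 and chr16:32631711-32631737 on the plus strand. The Slc40a1 element lies in exon 1 at chr1:45925466-45925492 on the minus strand, that of Fth1 in exon 1 at chr19:9982733-9982759 on the plus strand and that of Ftl1 in exon 1 at chr7:45459780-45459806 on the minus strand. The Slc11a2 element, in exon 16 at chr15:100395154-100395180 on the minus strand, had 4 of 5 bases paired, and the other 7 elements had all 5. Among 11552 tested genes with a protein-coding transcript, 0.19% held a fully paired match in a 5′ UTR, 0.779% held one in a 3′ UTR and 6.12% held a match of at least 4 pairs in either. A match is a description of the letters, and the absence of one in Slc11a1, Hmox1, Aco1, Ireb2 and Steap3 says only that these letters were not in the UTRs searched.

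**Figure D1:**
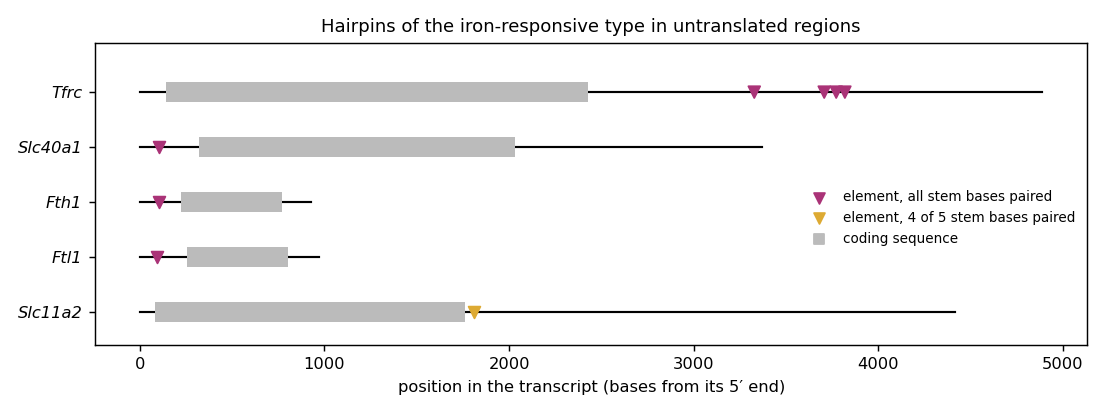
Position of the hairpins in 1 transcript per gene, in bases from the 5′ end of the transcript. Lines are transcripts, grey bars coding sequences and triangles elements; the 4 elements of Tfrc lie together in its 3′ UTR, that of Slc11a2 just behind the coding sequence, and those of Slc40a1, Fth1 and Ftl1 before it.

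In the fit over all 12840 tested genes, 8.97% were called higher in knockout and 11% lower (edgeR quasi-likelihood test, threshold of 0.05 on the adjusted p), and the genes called among the 10 were Tfrc, Hmox1 and Slc40a1, all higher. The 10 genes were chosen with this contrast in view, so that count is no test of them and nothing is read from it. The median log2 fold change (log2FC, knockout minus wild type) was 0.29 over the 10 genes and 0.04 over all tested genes.

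Iron uptake through transferrin held the largest difference among the 10 genes. Tfrc (Entrez Gene 22042, chromosome 16, positions 32608896 to 32632794 of GRCm38) encodes transferrin receptor 1. It stood at 42.6, 46, 53.4 and 35.6 CPM in the 4 wild type samples and, in the 5 knockout samples, at 190, 267, 159, 173 and 208 CPM. The lowest knockout library lay well above the highest wild type library. The mean was 44.4 ± 7.39 CPM in wild type against 199 ± 41.9 in knockout, 4.49-fold higher, with a log2FC of 2.17 (SE 0.16). Leaving out each library in turn gave log2FCs of 2.04 to 2.28. The sum of interstitial and iron-recycling macrophage markers was also higher in every knockout library, though the level of Ms4a7 was not, and their part in the Tfrc difference was not tested. Transferrin receptor is known to be abundant in dividing cells. Of 12 proliferation markers 4 were called lower (Cdk1, Ccnb1, Pcna and Tyms) and none higher, against 11% lower and 8.97% higher of all tested genes. Their sum was 1134 to 1297 CPM in wild type and 646 to 1254 CPM in knockout. Erythroid precursors carry much Tfrc as well, and red cell markers summed to 28.7, 292, 312, 23.7 and 31.7 CPM in knockout libraries 1 to 5. The part of dividing or erythroid cells in the Tfrc difference was not tested.

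Steap3, the endosomal ferrireductase that prepares transferrin iron for transport, differed little. It stood at 15.1, 13, 20.5 and 20 CPM in wild type and at 17.8, 19.4, 23.8, 22.8 and 21.5 CPM in knockout, and the groups overlapped. Its log2FC was 0.30 (SE 0.16), leaving out each library gave 0.19 to 0.41, and the planned correction for gene length, described with the ferritin genes, gave 0.03.

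The 2 divalent metal transporters of the NRAMP family had fold changes of opposite sign. Slc11a2, or DMT1, moves iron from endosomes to the cytosol and was at 21, 17.6, 23.1 and 16.1 CPM in wild type and at 15.1, 17, 17.8, 15.2 and 14.7 CPM in knockout. The groups overlapped, and the log2FC was -0.28 (SE 0.15). Slc11a2 has, like Tfrc, a 3′ UTR element, but the counts are summed over its transcripts, some of which lack that end, so the transcripts with the element cannot be told apart. Its span overlaps the predicted gene Gm5475, which had 0 CPM.

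Slc11a1 encodes NRAMP1, which where functional removes metal from phagosomes in macrophages and is known for resistance to intracellular microbes. RNA counts do not show whether this protein is functional in these C57BL/6 mice. Few Slc11a1 reads were present, 20 to 52 in the wild type libraries and 99 to 273 in the knockout libraries. Its level was 0.913, 1.84, 3.5 and 2.19 CPM in wild type and 5.77, 3.56, 3.77, 5.13 and 3.93 CPM in knockout. The groups did not overlap, as in 10.9% of all tested genes in that direction and 9.87% in the other, though wild type library 3 and knockout library 2 were nearly level. The log2FC was 1.08 (SE 0.40), and was 0.84 without wild type library 1 and 1.43 without wild type library 3.

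**Figure D2:**
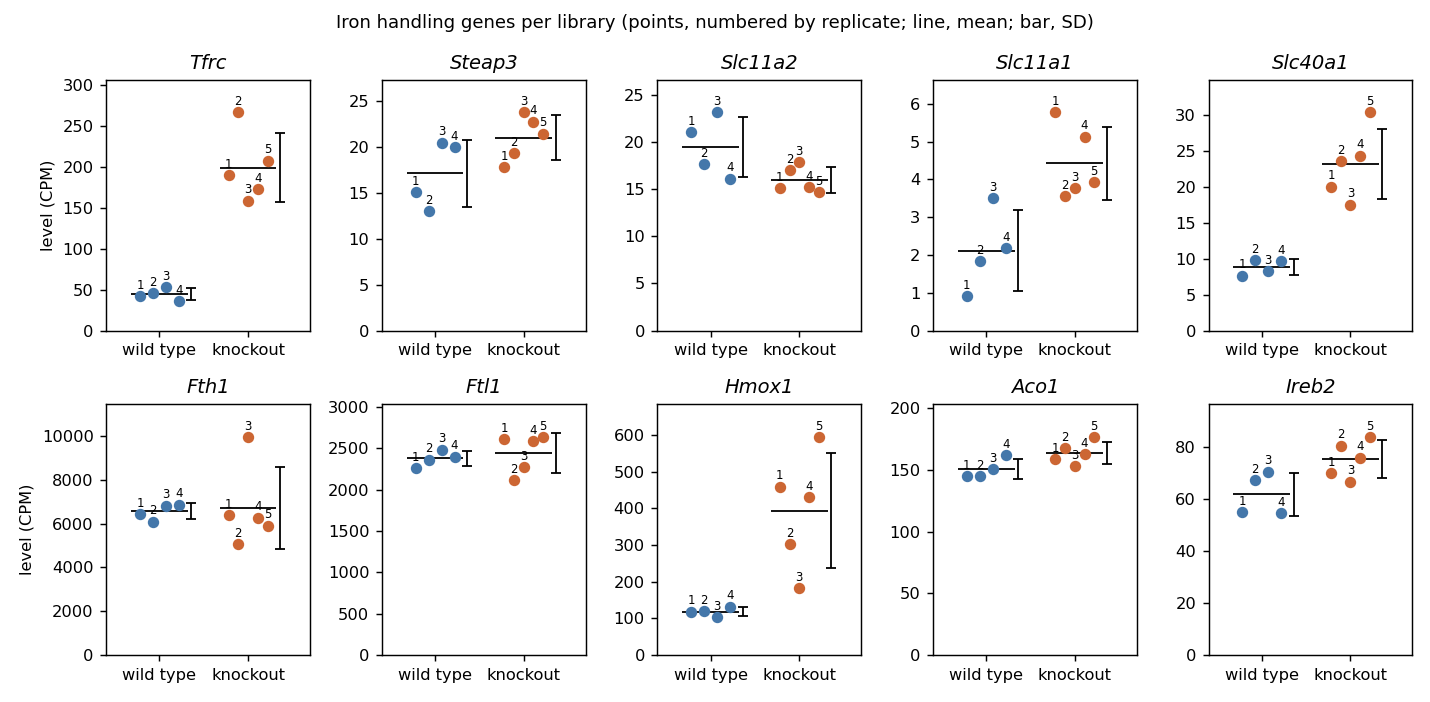
Level of each gene in CPM (counts per 1e6 of the TMM-scaled library) on the vertical axis, which starts at 0 in each panel, for 4 wild type and 5 knockout libraries (points, with replicate number; lines, means; bars, SD). Tfrc, Slc40a1, Hmox1 and Slc11a1 have groups that do not overlap, and the other 6 genes overlap.

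Transcripts for iron storage differed little as counted. Fth1 encodes the ferritin heavy chain, which oxidises iron, and Ftl1 the light chain, which helps to form the mineral core. Fth1 was at 6453, 6102, 6831 and 6874 CPM in wild type and at 6383, 5052, 9978, 6286 and 5917 CPM in knockout. Knockout library 3 was the highest of all 9 libraries, and the other 4 knockout libraries lay within the wild type range or below it. The log2FC was 0.03 (SE 0.15), and -0.15 without knockout library 3.

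Ftl1 was at 2262, 2365, 2486 and 2399 CPM in wild type and at 2613, 2113, 2270, 2586 and 2640 CPM in knockout. The groups overlapped, with 3 knockout libraries above all wild type libraries and 1 below, and the log2FC was 0.04 (SE 0.08). Together both chains took 0.855 ± 0.0114% of all counts in wild type and 0.946 ± 0.162% in knockout. Per kilobase there were 3.09 ± 0.148 heavy chain counts per light chain count in wild type and 3.11 ± 1.02 in knockout, where knockout library 3 had 4.92 and the others 2.51 to 2.74.

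The ferritin values depend on the treatment of gene length. Both genes are short (866 and 970 bases), and the 399 other tested genes within 10% of the length of Fth1 had a median log2FC of -0.31, and the 472 near Ftl1 one of -0.26. A length correction was run in 4 forms, and they did not give the same answer. In the form planned, a least-squares curve of each library on gene length, Fth1 was at 0.13 (SE 0.14) and Ftl1 at 0.09 (SE 0.09), neither past the threshold, while the median of all tested genes moved to -0.20. The other 3 forms were added after these values had been seen, because the planned one also shifted the scaling of all genes. With a robust curve Fth1 was at 0.37 and Ftl1 at 0.35, with a centred curve at 0.37 and 0.34, and with a curve both robust and centred at 0.43 and 0.40. Fth1 was past the threshold in the last form alone, and Ftl1 in the 3 added forms and not in the planned one. The share of all tested genes called higher was 3.64% in the planned form and 7.35%, 8.61% and 9.42% in the added ones. Over the 4 forms Tfrc stood at 1.81 to 2.08, Slc40a1 at 1.10 to 1.36 and Hmox1 at 1.61 to 1.89. Slc11a2 was at -0.65 in the planned form, past the threshold as lower, as were 3131 of the 12840 tested genes in that form. In the 3 added forms it was at -0.44 to -0.38 and not past the threshold. The 10 genes were chosen with this contrast in view, so passing the threshold is no test of them. It is given only to show how a call depends on the form.

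Ferritin genes have near-identical processed copies, and how the counting treated reads that match several places is not stated in the labels. The copy Ftl1-ps2 was counted at 52.1 ± 1.89 CPM in wild type against 60.8 ± 4.05 in knockout, so the ferritin counts are uncertain to the extent that reads were shared.

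**Figure D3:**
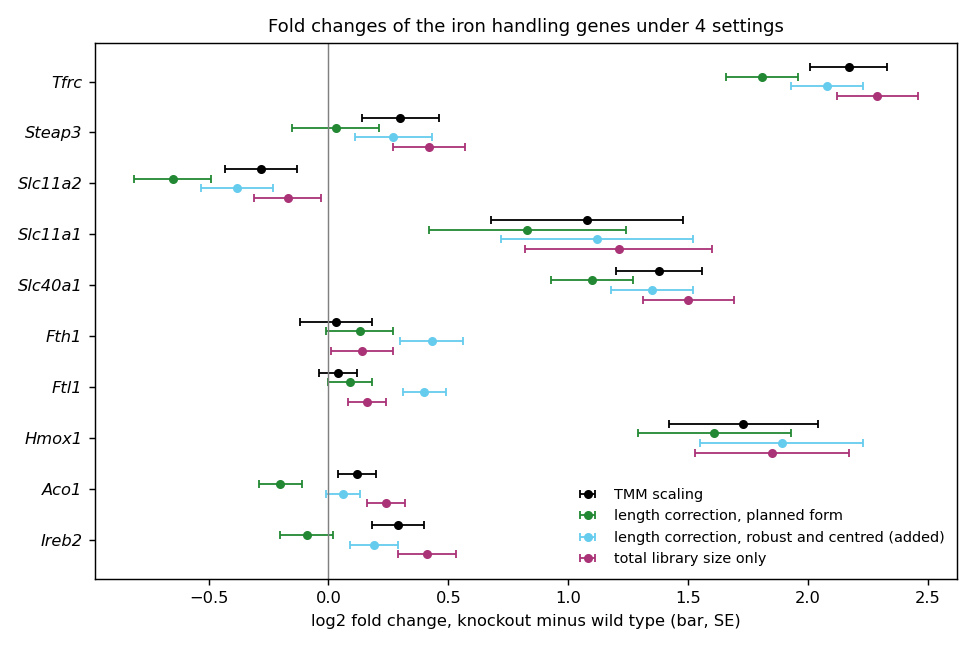
Log2 fold change, knockout minus wild type, on the horizontal axis, with its SE as a bar, under TMM scaling, the planned length correction, the robust and centred correction added later, and total library size alone. Fth1 and Ftl1 lie at 0.13 and 0.09 with the planned correction and at 0.43 and 0.40 with the added one, while Tfrc, Hmox1 and Slc40a1 lie above 1 in all 4 settings.

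The exporter and the inducible heme oxygenase were both at higher levels in knockout. Slc40a1 (Entrez Gene 53945, chromosome 1, positions 45908070 to 45926532) encodes ferroportin, the iron exporter. It was at 7.62, 9.81, 8.27 and 9.64 CPM in wild type and at 20, 23.5, 17.5, 24.3 and 30.3 CPM in knockout, with no overlap. The mean was 8.83 ± 1.06 CPM and 23.1 ± 4.85 CPM, 2.62-fold higher, and the log2FC was 1.38 (SE 0.18), or 1.27 to 1.48 with each library left out. Ferroportin is also abundant in iron-recycling macrophages, whose markers were higher in knockout as a sum but not in Ms4a7, and their part in this difference was not tested.

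Hmox1 (Entrez Gene 15368, chromosome 8, positions 75093618 to 75100593) encodes heme oxygenase 1, the stress-inducible enzyme that frees iron from heme. It was at 118, 120, 103 and 132 CPM in wild type and at 459, 303, 182, 430 and 595 CPM in knockout. The groups did not overlap, and the knockout libraries ran from 182 to 595 CPM. The mean was 119 ± 11.7 CPM in wild type against 394 ± 157 in knockout, 3.32-fold higher, with a log2FC of 1.73 (SE 0.31). Knockout library 3 was the lowest of its group, and leaving it out gave 1.92.

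Transcripts of the iron regulatory proteins, which bind the hairpins, differed little. Aco1 encodes IRP1, a cytosolic aconitase that binds RNA when it lacks its iron-sulphur cluster. It was at 145, 145, 151 and 162 CPM in wild type and at 159, 168, 153, 163 and 177 CPM in knockout, a log2FC of 0.12 (SE 0.08). Ireb2 encodes IRP2, which is degraded when iron is plentiful, and was at 55.1, 67.2, 70.6 and 54.5 CPM in wild type and at 70, 80.6, 66.7, 76 and 84 CPM in knockout. The groups overlapped in both genes. The log2FC of Ireb2 was 0.29 (SE 0.11), and 0.37 without wild type library 3 and 0.34 without knockout library 3. With the planned length correction Aco1 and Ireb2 were at -0.20 and -0.09, the opposite sign. These proteins are controlled by iron and by degradation, neither of which RNA counts measure.

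Seen across libraries, knockout library 3 stood at one end in several of these genes. It had the lowest Tfrc, Slc40a1, Hmox1, Aco1 and Ireb2 of the 5 knockout libraries and the highest Fth1, Steap3 and Slc11a2. It also had the lowest sum of proliferation markers (646 CPM, the other knockout libraries 974 to 1254) and the highest sum of neutrophil markers (202 CPM, the others 76.8 to 112), and the lowest sum of epithelial markers (88.9 CPM, the others 186 to 352). Its sum of alveolar macrophage markers was the highest of the knockout libraries (41491 CPM, the others 15173 to 27434). So was its sum of red cell markers (312 CPM, the others 23.7 to 292). The epithelial sum is largely Cdh1, at 75.8 to 316 CPM over the knockout libraries. The part of these in the iron genes was not tested. Without this library the log2FCs of Tfrc, Slc40a1 and Hmox1 were 2.25, 1.48 and 1.92.

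**Figure D4:**
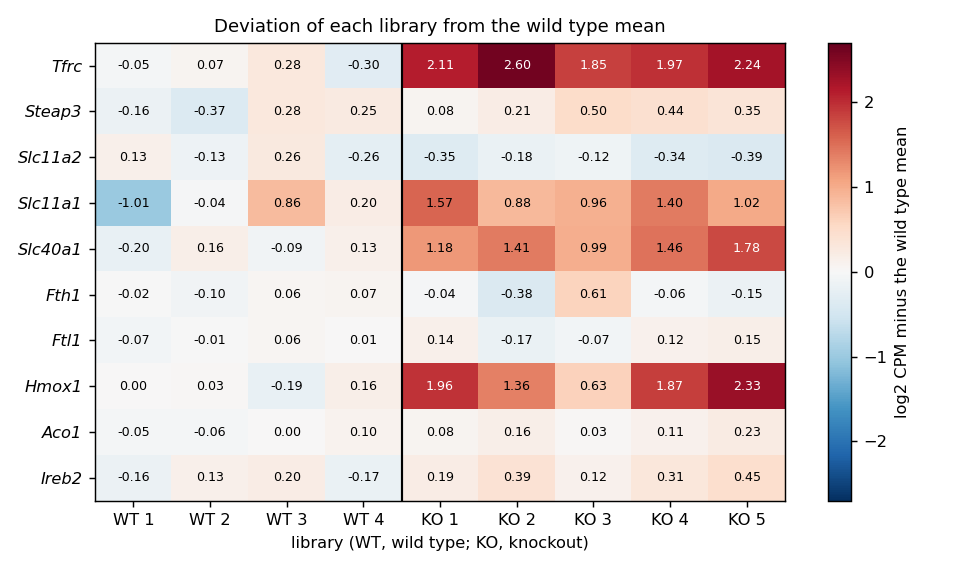
Log2 CPM of each gene in each library minus the wild type mean, as numbers and colours, with wild type (WT) libraries left of the line and knockout (KO) libraries right. Tfrc is 1.85 to 2.60 above the wild type mean in every knockout library, Hmox1 0.63 to 2.33 and Slc40a1 0.99 to 1.78, and Fth1 is 0.61 above in knockout library 3 alone.

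The order of the genes by level per length differed between the genotypes around the transferrin receptor. In CPM per kilobase of gene length, wild type macrophages had 7581 ± 418 of Fth1, 2452 ± 95.6 of Ftl1, 75.2 ± 7.45 of Hmox1 and 34.9 ± 1.83 of Aco1. Next came Ireb2 at 10.7 ± 1.42 and Tfrc at 9.04 ± 1.5, which overlapped, then Steap3 at 5.39 ± 1.17, Slc11a2 at 3.46 ± 0.566 and Slc40a1 at 2.61 ± 0.315, each overlapping the next, and Slc11a1 at 0.916 ± 0.464. In knockout macrophages Tfrc was at 40.6 ± 8.53 CPM per kilobase, level with Aco1 at 38 ± 2.12, behind Hmox1 at 250 ± 99.8. Slc40a1 at 6.84 ± 1.44 reached Steap3 at 6.63 ± 0.773, and Slc11a2 at 2.83 ± 0.236 and Slc11a1 at 1.92 ± 0.419 were lowest. The ratio of Fth1 to Tfrc, both per kilobase, was 726 to 1094 in the wild type libraries and 107 to 356 in the knockout libraries.

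Genes around these steps were taken from 5 lists of 98 genes, drawn up from textbook knowledge with earlier results of these data known, and were tested in the fit over all 12840 genes. Of the 87 tested, 14 were higher and 12 lower, or 29.9% against 19.9% of all tested genes, with a median log2FC of 0.02. The split depends on the form of length correction: 4 were higher and 26 lower in the planned form, 13 and 8 in the robust one, and 15 and 6 in each of the centred ones. Over all 12840 tested genes the planned form called 468 higher and 3131 lower, and the robust one 944 and 1099. The centred form called 1106 and 940, and the one both robust and centred 1209 and 871. By list, the planned form gave 0 higher and 1 lower of 8 tested in transport and 0 and 4 of 17 in chaperones and regulators. It gave 0 and 7 of 20 in heme, 0 and 11 of 27 in mitochondrial iron and iron-sulphur assembly and 4 and 3 of 15 among NRF2 targets. Of the 26 calls under TMM scaling, 17 also held without any 1 library, 10 of them higher and 7 lower.

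In iron transport 1 of 8 tested genes was higher and none lower, with a median log2FC of 0.46. That is 12.5% of the list, below the 19.9% called over all tested genes. The median rests in part on genes of low level, named after their values were seen and not called. Hp, Steap4 and Ltf had wild type means of 1.71, 0.103 and 0.487 CPM. Their log2FCs, the largest of the list, were 3.07 (SE 1.08), 2.83 (SE 1.28) and 1.05 (SE 1.18). Trf, which encodes transferrin itself, was at 1847, 1799, 1578 and 1792 CPM in wild type and at 2424, 2131, 2942, 2176 and 2034 CPM in knockout, all above wild type. Its log2FC was 0.42 (SE 0.10, adjusted p = 0.0119, edgeR quasi-likelihood test), and 0.19 (adjusted p = 0.206) with the planned length correction. The other 9 listed genes did not pass the filter on low counts, among them the hormone gene Hamp (hepcidin), Tfr2 and the ferroxidase genes Cp and Heph.

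Among 17 iron chaperones and regulators 4 were higher and none lower, with a median log2FC of 0.17, or 23.5% called against 19.9% of all tested genes. Hif1a, the oxygen-sensing transcription factor, rose, at 104 ± 7.82 CPM in wild type against 147 ± 7.79 CPM in knockout, with log2FC 0.49 (SE 0.08, edgeR adjusted p = 0.000882). Zc3h12a, whose product Regnase-1 is an RNase known to cut Tfrc transcripts, rose, at 79.8 ± 16 CPM in wild type against 114 ± 11.7 CPM in knockout (log2FC 0.52, SE 0.12, edgeR adjusted p = 0.00935). With the planned length correction neither was called (adjusted p = 0.217 and 0.206), and both were in the 3 added forms. Bach1, the heme-binding repressor of Hmox1 and ferritin genes, was called by a small margin at 0.34 (SE 0.10, edgeR adjusted p = 0.0304). Its call ended without wild type library 1 or knockout library 1, 2 or 5 (adjusted p = 0.0559 to 0.0778) and in all 4 forms of length correction (-0.02 to 0.25, adjusted p = 0.0568 to 0.884). Nfe2l2, which encodes NRF2 and is named here after its values were seen, was called at 0.28 (edgeR adjusted p = 0.0412) and lost the call without wild type library 1, 3 or 4 or knockout library 1, 2, 4 or 5 (adjusted p = 0.0517 to 0.11) and in 2 of 4 forms of length correction (0.05 to 0.30 over the 4, adjusted p = 0.719 at most).

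Of 16 genes known as targets of NRF2, the activator of antioxidant genes and of Hmox1, 15 were tested, and 7 were higher and 3 lower. That is 66.7% of the list against 19.9% of all tested genes, and the median log2FC was 0.26. Of the 7 higher genes, G6pdx and Pgd, named after their values were seen, were each called at 0.23 (edgeR adjusted p = 0.0449 and 0.0428). Leaving out 1 of the 9 libraries ended the call of G6pdx in 8 fits and that of Pgd in 7. G6pdx was called in 2 of 4 forms of length correction and Pgd in 3, neither in the planned form (adjusted p = 0.898 and 0.989). Srxn1, which repairs oxidised peroxiredoxins, rose, at 22.9 ± 3.23 CPM in wild type against 39.1 ± 6.44 CPM in knockout, a log2FC of 0.77 (SE 0.15, edgeR adjusted p = 0.00231). Txnrd1, a thioredoxin reductase, rose by 0.61 (SE 0.10, adjusted p = 0.00105) and the glutathione conjugate exporter Abcc1 by 0.60 (SE 0.12, adjusted p = 0.00336, both by edgeR). In the other direction Txn1, the thioredoxin that Txnrd1 reduces, fell, at 548 ± 82.6 CPM in wild type against 341 ± 22.9 CPM in knockout (log2FC -0.69, SE 0.10), Prdx1, a peroxiredoxin, from 1051 ± 150 to 651 ± 71.6 CPM (-0.69, SE 0.11) and Gpx4, the lipid peroxide reductase that guards against ferroptosis, from 177 ± 31.4 to 108 ± 25.7 CPM (-0.71, SE 0.16). Their adjusted p-values by edgeR were 0.000382, 0.000555 and 0.00605. These 3 genes, Srxn1 and Txnrd1 were called in all 4 forms of length correction, Txn1 at -0.66 to -0.35, and Abcc1 was not called in the planned one (0.24, adjusted p = 0.113).

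Heme synthesis and handling had no gene higher and 4 lower of 20 tested, with a median log2FC of -0.12. The share called, 20%, was near the 19.9% of all tested genes. Pgrmc1, a heme-binding membrane protein, fell, at 168 ± 8.33 CPM in wild type against 129 ± 8.91 CPM in knockout, a log2FC of -0.38 (SE 0.08, edgeR adjusted p = 0.00467), and was called in all 4 forms of length correction (-0.56 to -0.28). Blvrb, a biliverdin reductase that acts downstream of heme oxygenase, was called at -0.42 (SE 0.11, edgeR adjusted p = 0.0198), and in 1 of 4 forms of length correction, the planned one (-0.32 to -0.02 over the 4). It also lost the call without wild type library 3 or 4 or knockout library 2 or 5 (adjusted p = 0.0512 to 0.0557). Lrp1, an endocytic receptor that takes up heme bound to hemopexin among other ligands, was called at -0.30 (SE 0.08, edgeR adjusted p = 0.0169) and lost the call without wild type library 1 or 4 (edgeR adjusted p = 0.0507 and 0.0718) and in 2 of 4 forms of length correction. The fourth, Uros of heme synthesis, named after its values were seen, was called at -0.57 (edgeR adjusted p = 0.0252) and lost the call without wild type library 1 or 4 or knockout library 2, 4 or 5 (adjusted p = 0.0526 to 0.0709) and in 2 of 4 forms of length correction. Hmox2, the constitutive heme oxygenase, was at -0.31 and not called.

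Mitochondrial iron and iron-sulphur assembly, a list that also holds cytosolic assembly genes such as Ciao2b, gave 2 genes higher and 5 lower of 27. The median log2FC was -0.22, and 25.9% were called against 19.9% of all tested genes. Hspa9, the chaperone that hands over iron-sulphur clusters, rose, at 247 ± 10.8 CPM in wild type against 351 ± 30 CPM in knockout, a log2FC of 0.51 (SE 0.08, edgeR adjusted p = 0.000742). Cisd2, an iron-sulphur protein of the endoplasmic reticulum and outer mitochondrial membrane, fell, at 154 ± 27.3 CPM in wild type against 103 ± 11 CPM in knockout (-0.58, SE 0.12, edgeR adjusted p = 0.00327) and was called in all 4 forms of length correction (-0.84 to -0.59). The cluster transfer genes Bola3 and Ciao2b were called at -0.82 (SE 0.12) and -0.68 (SE 0.13), with adjusted p of 0.000445 and 0.00251 by edgeR. Both are short (530 and 680 bases), and they were called in 1 of 4 forms of length correction, the planned one, at -0.55 to -0.27 and -0.48 to -0.18 over the 4. Hspa9 was called in the 3 added forms and not in the planned one (adjusted p = 0.0632).

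**Figure D5:**
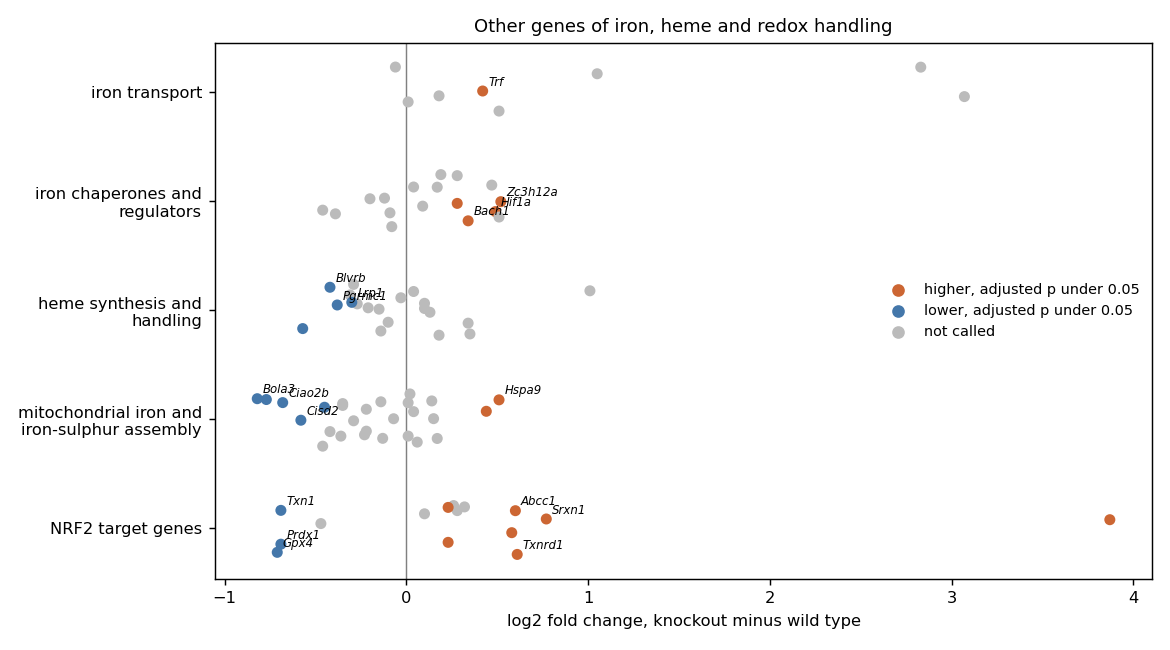
Log2 fold change, knockout minus wild type, on the horizontal axis for the 87 tested genes of the 5 lists, 1 point per gene with small vertical scatter, orange where called higher, blue where called lower, and most of those chosen by rule named; Me1 is the point at 3.87. Under TMM scaling 1 gene of the transport list and 4 of the regulator list were called higher, 4 of the heme list lower, 2 of the mitochondrial iron and iron-sulphur assembly list higher and 5 lower, and 7 NRF2 targets higher and 3 lower.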

How the data were processed

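The deposited values are whole-number counts for each gene, which the authors made with featureCounts on mm10 per the submitters' processing notes, with the gene's length in bases per the file headers. The sources used here do not name the aligner, annotation or strand setting. The 9 tables of single libraries held the same counts as the joint table, which was used. RefSeq (GRCm38.p6) named 25275 of 27179 identifiers.

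Counts were tested in R 4.3.3 with edgeR 4.0.16 (TMM, filterByExpr, robust quasi-likelihood), knockout against wild type over 9 libraries, with Benjamini-Hochberg adjustment over 12840 genes and a threshold of 0.05. SE derives from the test statistic. On simulated data (12515 genes, 195 changed 2-fold) the fit recovered 67.7% of the changed genes, and 97.1% of those above the median level, with 4.35% of calls false. This missed the bar of 70% first set, which was lowered to 50% with one of 80% added for genes above the median level, so a gene of low level that was not called may still differ. The simulated counts held no trend with gene length and few changed genes, unlike the real ones. The false share of 4.35% therefore need not hold for the calls reported here. CPM was computed here on TMM-scaled libraries, and log2 CPM used a prior count of 2. The planned length correction entered each library's least-squares loess curve (span 0.5) of log2 CPM deviation on log2 length as an offset. It also shifted the scaling of all genes, so 3 other forms (robust, centred, and both) were added after seeing the data, with the values of the iron genes in view; all 4 are reported. Limma 3.58.1 (voom), DESeq2 1.42.0, other filters and scalings, a replicate block and leaving out each library were alternatives.

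The members and lists were chosen with earlier results of these data known. From each list the text names up to 3 called genes per direction by smallest adjusted p. Results for 2 genes that a rule or list would name are not reported here. P-values set the difference between the genotypes against the spread between these libraries.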

Additional observations from a re-analysis of the deposited data

Results flagged for a closer look

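Within groups, 56 sets of log2 CPM values (10 iron genes and 18 other named genes, in each of 2 genotypes) were searched for 1 library far from the rest by Dixon's ratio, and 2 stood out. By chance about 1 in 20 sets would, and 2 of 56 is not above that share. Bola3 was at 4.60 log2 CPM in knockout library 4, with the other knockout libraries at 4.18 to 4.29. Ciao2b was at 4.95 log2 CPM in the same library, with the others at 4.55 to 4.65. Fth1 in knockout library 3 and Hmox1 in that library did not pass this criterion.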

How the results depend on the processing

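Over the 21 alternatives the log2 fold changes were 1.81 to 2.29 for Tfrc, 0.99 to 1.50 for Slc40a1 and 1.32 to 1.92 for Hmox1. Those of Aco1, Ireb2 and Fth1 lay on both sides of 0, at -0.22 to 0.24, -0.10 to 0.41 and -0.15 to 0.43. Of all tested genes 1152 were higher and 1409 lower (45% of calls higher). With total library size 1960 were higher, 65.9% of calls, and the median moved from 0.04 to 0.15. The length correction was run in 4 forms, 1 planned and 3 added after seeing the data. The planned form gave 468 higher and 3131 lower genes (13% of calls higher, median -0.20), with 4 pathway genes higher and 26 lower against 14 and 12, and Bach1 at -0.02. The robust and centred form gave 871 lower genes (58.1% of calls higher), and both centred forms 6 lower pathway genes. The form that was both robust and centred is the only one of the 4 in which both ferritin genes passed the threshold. It was chosen with their values in view, so this is no test of them. Leaving out each library gave 772 to 1434 higher and 1074 to 1521 lower genes over all, and 10 to 16 higher and 8 to 17 lower pathway genes. Blocking on the replicate number gave 749 higher genes. The block with the planned length correction, also added, gave 300 higher and 2336 lower genes, 3 higher and 19 lower pathway genes, and Bach1 at -0.03. Same-numbered libraries correlated in their deviations at 0.0364, 0.0324, -0.0565 and 0.115. Wild type libraries 1, 2, 3 and 4 correlated best with knockout libraries 2, 1, 5 and 4. Pairing by number need not leave such a correlation, so these values cannot decide whether the samples were paired. Of 378 values for the named pathway genes, 335 kept direction and call, 41 lost the call and 2 reversed, and the cause was not tested. Slc11a1, at 20 to 52 reads per wild type library, has the fewest reads of the iron genes.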
